A study of Rattus norvegicus with 14 samples.

Results

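The genes of the methionine cycle and of methyl group metabolism in liver followed here were 10: Gnmt, Bhmt, Mat1a, Ahcy, Cbs, Cth, Shmt1, Sardh, Dmgdh and Pemt. A gene was taken as measured where a probe set of the array carried its symbol and no other, and 9 of the 10 genes were, among 14497 genes tested. Pemt was on the array only in a probe set that also carries Srebf1, so it has no value of its own. Each of the 9 measured genes had 1 such probe set, so no choice between probe sets was made for them.

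Liver keeps most of the body's capacity to turn methionine into S-adenosylmethionine, the donor of methyl groups. Mat1a makes this donor, Gnmt spends its surplus on glycine, and Ahcy splits the S-adenosylhomocysteine that every methyl transfer leaves behind. The homocysteine so formed is either methylated back to methionine, in liver largely by Bhmt with betaine, or sent by Cbs and Cth to cysteine, while Sardh and Dmgdh oxidise sarcosine and dimethylglycine, the side products of Gnmt and Bhmt, in mitochondria.

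Transcripts were measured on Affymetrix Rat Gene ST arrays in laser-captured regions of formalin-fixed, paraffin-embedded liver of 12 male F344 rats, an inbred strain, with 3 animals in each of 4 groups. The rats of the normal group were unmanipulated. Those of the AAF/PH group were given a 2.5 mg pellet of 2-acetylaminofluorene (AAF), which blocks hepatocyte division and releases over 14 days, on day 1, and underwent partial hepatectomy (PH) on day 7. These livers were taken on day 14, and the captured tissue is labelled as oval cells, the progenitor cells that proliferate under this protocol. The foci are persistent lesions of the Solt-Farber protocol that stained for the placental glutathione S-transferase GSTP. Both foci groups received diethylnitrosamine at 200 mg/kg on day 1, the same AAF pellet on day 14, partial hepatectomy on day 21 and, also on day 21, a 21-day pellet of placebo or of the mTOR inhibitor rapamycin (2.5 mg/kg per day). They were taken on day 70, after the release time of the pellet had passed. Foci and normal liver therefore differed in carcinogen, surgery and choice of lesion at once, and these cannot be told apart, nor can the treatment and the day of sampling between foci and AAF/PH liver.

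Several facts of the arrays touch every result. Rapamycin animal 3 was run on 3 arrays, a pair from the same RNA and 1 from a new laser capture, and these were averaged into 1 value. The spread of an array, taken as the interquartile range of its log2 values, was 1.57 to 1.71 on the arrays of this animal, 1.98 to 2.26 in AAF/PH liver, 2.14 to 2.61 in placebo foci, 2.38 and 2.50 in the other rapamycin animals and 2.36 to 2.80 in normal liver. Gstp1, by which the lesions were chosen, was 5.20 (placebo) and 4.83 (rapamycin) above normal liver on the log2 scale, and is no finding. All 10 of the hepatocyte markers listed were measured in every group. Their summed intensity was 40983 to 46332 in normal liver, 21360 to 25220 in AAF/PH liver, 28462 to 34229 in placebo foci and 24345 to 39284 in rapamycin foci. The AAF/PH tissue thus still carried abundant RNA of these markers: Alb, serum albumin, read 4222 to 5020 there. Which cells of the AAF/PH tissue this RNA came from was not tested. Of 6 biliary and oval cell markers measured, 5 passed as higher in AAF/PH liver than in normal liver, 3 in placebo foci and 2 in rapamycin foci. Over all genes 7.54%, 2.84% and 1.6% passed as higher in these comparisons. In such captured tissue, fewer cells of a type and less RNA per cell cannot be told apart, and the part of cell mixture in the results below was not tested.

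The promoters of Gnmt and Bhmt are printed because these genes differed most from normal liver in AAF/PH tissue and were the members called in every comparison with it. The sequences are the 250 bases before the start of transcription in RefSeq on GRCr8, 5′ to 3′ on the strand of the gene, at chr9:21752032-21752281 (plus strand) for Gnmt and chr2:26614430-26614679 (minus strand) for Bhmt. Capitals mark matches to 3 motifs: the CCAAT box (CCAAT, or ATTGG on the other strand), the GC box (GGGCGG, or CCGCCC on the other strand) and the TATA box (TATAAA).
Gnmt: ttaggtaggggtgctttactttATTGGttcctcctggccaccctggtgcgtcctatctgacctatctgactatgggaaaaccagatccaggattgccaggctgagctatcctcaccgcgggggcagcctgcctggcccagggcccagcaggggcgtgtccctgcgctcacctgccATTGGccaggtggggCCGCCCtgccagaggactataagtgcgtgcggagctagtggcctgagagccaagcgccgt
Bhmt: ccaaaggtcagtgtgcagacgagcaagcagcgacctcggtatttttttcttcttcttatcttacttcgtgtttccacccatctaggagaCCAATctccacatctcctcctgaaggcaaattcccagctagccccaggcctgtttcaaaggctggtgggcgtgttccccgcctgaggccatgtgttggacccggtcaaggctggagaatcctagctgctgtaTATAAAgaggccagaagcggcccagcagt
The Gnmt window held a CCAAT box at positions -228 and -75 and a GC box at -60, all on the other strand, and the Bhmt window a CCAAT box at -161 and a TATA box at -29. RefSeq promoters of 300 bases, the last 50 of them past the start, were found for 9 of the 10 genes, with 2 entries for Sardh. Of these 10 windows 7 held a CCAAT box, against 37.5% of all 33469 promoters, 5 held a GC box, against 33.1%, and the Bhmt window alone held a TATA box, against 14.2%. The liver motifs searched on both strands were rarer. The HNF1 motif GTTAAT was in 1 window, of Sardh, and in 7.45% of all promoters. The HNF4A core CAAAGTCCA, the C/EBP palindrome TTGCGCAA and the C/EBP-ATF element TGATGNAA were in none of the 10 windows, and in 0.391%, 0.17% and 3.98% of all promoters. A match is a string of letters and not a site that was tested. On chromosome 2 of GRCr8, Bhmt2 lies next to Dmgdh with no protein-coding gene between them, and 1 such gene separates Bhmt2 from Bhmt.

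In AAF/PH liver 7 of the 9 measured genes fell and none rose, against 12.5% of all genes called lower and 7.54% called higher. This comparison sets tissue captured as oval cells against normal liver. AAF, surgery and the captured tissue differ at once between them and cannot be told apart. The median log2 difference of the 9 genes was -1.29, against 0.12 over all genes. In placebo foci 8 of 9 fell and none rose, against 5.38% of all genes lower and 2.84% higher, with a median of -1.45 against 0.04. In rapamycin foci 6 of 9 fell and none rose, against 4.93% lower and 1.6% higher, with a median of -1.03 against 0.07. The 9 genes are bright: in normal liver they read from percentile 88.5 (Shmt1) to 99.7 (Bhmt) of all genes. Over only the genes above the median level, the medians were -0.21 in AAF/PH liver, -0.15 in placebo foci and -0.26 in rapamycin foci. These lie nearer the members' medians than those of all genes do. A gene was called at a limma p-value under 0.05 after Benjamini-Hochberg adjustment over all 14497 genes. The comparisons with normal liver share the same 3 normal animals, so their counts are not independent of each other. Log2 differences below carry the standard error from limma after the ± sign, with 3 animals a group.

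**Figure D1:**
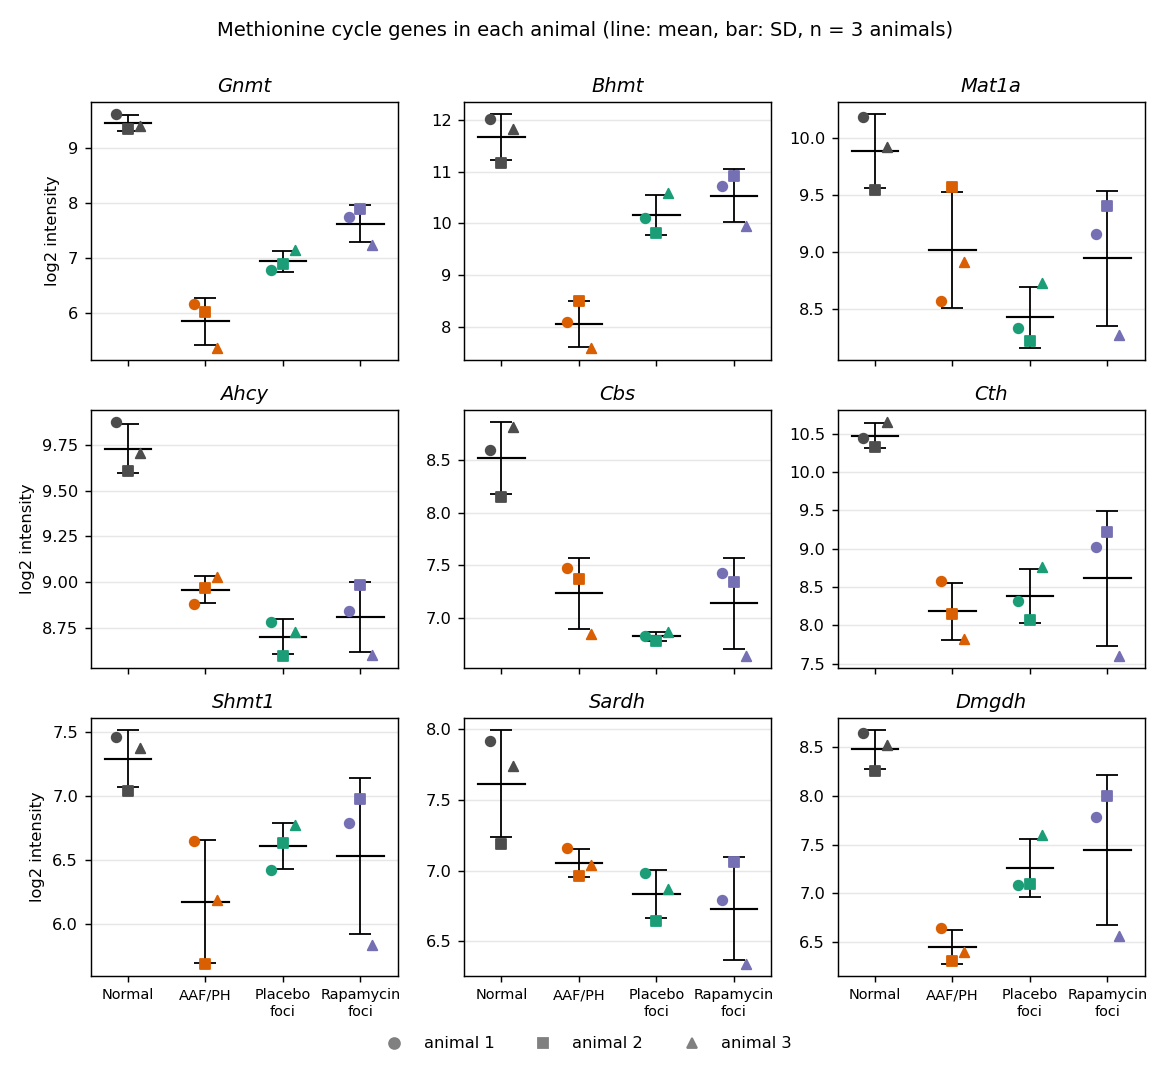
Log2 intensity of the 9 measured genes in each of the 12 animals, by group; symbols give the animal, the line the group mean and the bar the SD of 3 animals, and each panel has its own axis. For Gnmt and Bhmt the AAF/PH animals lie below all others, and rapamycin animal 3 is the lowest of its group in every panel.

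Gnmt, glycine N-methyltransferase, the abundant liver enzyme that removes surplus S-adenosylmethionine, stood apart in every group. Its intensity was 787, 648 and 677 in normal animals 1 to 3, 72.1, 65.5 and 41.5 in AAF/PH liver, 111, 119 and 142 in placebo foci, and 214, 237 and 152 in rapamycin foci. No group overlapped another, and the order of the geometric means was normal liver (702), rapamycin foci (198), placebo foci (123) and AAF/PH liver (58.1). Gnmt fell by 3.59 ± 0.23 in AAF/PH liver (limma adjusted p = 3.29e-07, 12.1-fold), with only 0.276% of all genes at a lower difference. In placebo foci it fell by 2.51 ± 0.23 (adjusted p = 1.18e-05) and in rapamycin foci by 1.83 ± 0.23 (adjusted p = 0.000456). The step from rapamycin to placebo foci was not called, whereas those from normal liver to rapamycin foci and from placebo foci to AAF/PH liver were.

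Mat1a, the liver form of methionine adenosyltransferase, was lower in foci with less certainty. Normal animals read 1163, 744 and 969, AAF/PH animals 379, 760.1 and 483, placebo animals 323, 297 and 424, and rapamycin animals 569, 676 and 309.6. The AAF/PH animals overlapped normal liver through animal 2, and rapamycin animal 3 lay within the placebo range. Mat1a fell by 1.45 ± 0.30 in placebo foci (limma adjusted p = 0.00748). The differences of -0.86 ± 0.30 in AAF/PH liver (adjusted p = 0.0595) and -0.94 ± 0.30 in rapamycin foci (adjusted p = 0.0794) were not called.

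Ahcy, which hydrolyses S-adenosylhomocysteine and so relieves the inhibition of methyltransferases, fell in all 3 groups. It read 939, 780.5 and 835 in normal liver, 471, 501 and 521 in AAF/PH liver, 439, 386 and 424 in placebo foci, and 458, 506 and 388 in rapamycin foci. All 9 animals outside the normal group lay below all 3 normal animals. Ahcy fell by 0.77 ± 0.16 in AAF/PH liver (limma adjusted p = 0.00404), by 1.03 ± 0.16 in placebo foci (adjusted p = 0.00109) and by 0.92 ± 0.16 in rapamycin foci (adjusted p = 0.00515). After quantile normalization, which gives all arrays the same spread, the AAF/PH difference was -0.34 and no longer called (adjusted p = 0.145).

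Bhmt, betaine-homocysteine methyltransferase, had the widest gap between AAF/PH liver and foci. It read 4146, 2295 and 3633 in normal liver, 272, 360.5 and 193 in AAF/PH liver, 1103, 898 and 1536 in placebo foci, and 1702, 1943 and 991 in rapamycin foci. Normal liver and AAF/PH liver overlapped no other group, while placebo and rapamycin foci overlapped each other. Bhmt fell by 3.61 ± 0.31 in AAF/PH liver (limma adjusted p = 2.81e-06, 12.2-fold), to 8.17% of the normal geometric mean. In placebo foci it fell by 1.50 ± 0.31 (adjusted p = 0.00688), to 35.3% of normal. The fall of 1.13 ± 0.31 in rapamycin foci was close to the threshold (adjusted p = 0.0432), and 10 of 21 alternative analyses lost it, among them those without normal animal 1 (adjusted p = 0.22) and without rapamycin animal 3 (-0.84, adjusted p = 0.084).

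The transsulfuration genes were low in all 3 groups. Cbs, cystathionine beta-synthase, which commits homocysteine to cysteine, read 388, 284 and 452 in normal liver, 178, 165 and 115 in AAF/PH liver, 114, 109 and 116 in placebo foci, and 172, 162 and 99.3 in rapamycin foci. The placebo animals were close together, and none of the 9 animals outside normal liver reached the lowest normal value. Cbs fell by 1.29 ± 0.24 in AAF/PH liver (limma adjusted p = 0.00177), by 1.70 ± 0.24 in placebo foci (adjusted p = 0.000516) and by 1.39 ± 0.24 in rapamycin foci (adjusted p = 0.00484). With quantile normalization the AAF/PH fall was 0.85, still called (adjusted p = 0.00744). Cth, cystathionine gamma-lyase, which releases the cysteine, read 1389, 1282 and 1605 in normal liver, 381, 284 and 227 in AAF/PH liver, 320.3, 269.7 and 436 in placebo foci, and 520.3, 596 and 194 in rapamycin foci. Every animal outside normal liver was below 1282, and rapamycin animal 3 was the lowest of all 12. Cth fell by 2.29 ± 0.34 in AAF/PH liver (adjusted p = 0.000325), by 2.08 ± 0.34 in placebo foci (adjusted p = 0.00156) and by 1.86 ± 0.34 in rapamycin foci (adjusted p = 0.00686). These 3 groups overlapped each other in both genes, and none of the differences between them was called.

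Shmt1, the cytosolic serine hydroxymethyltransferase that links serine, glycine and folate, was called in AAF/PH liver but in neither kind of foci. It read 176, 131 and 166 in normal liver, 100.4, 51.4 and 72.8 in AAF/PH liver, 85.4, 98.9 and 109 in placebo foci, and 110.2, 126 and 56.9 in rapamycin foci. All 9 lower animals lay below the normal range, but the AAF/PH and rapamycin animals spread widely. The fall in AAF/PH liver was 1.12 ± 0.29 (limma adjusted p = 0.0143), and the differences of -0.68 ± 0.29 in placebo foci (adjusted p = 0.195) and -0.76 ± 0.29 in rapamycin foci (adjusted p = 0.124) were not called. The AAF/PH call was lost without normal animal 1 (adjusted p = 0.0692), normal animal 3 (adjusted p = 0.0567) or AAF/PH animal 2 (adjusted p = 0.082). A difference between these comparisons was not called either: placebo foci stood 0.43 ± 0.29 above AAF/PH liver (adjusted p = 0.542).

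The mitochondrial pair differed. Sardh, sarcosine dehydrogenase, read 242, 146 and 213 in normal liver, 143, 124 and 131 in AAF/PH liver, 127, 100.2 and 117 in placebo foci, and 111, 133 and 80.9 in rapamycin foci. Normal animal 2 stood only just above the highest AAF/PH animal. Sardh fell by 0.78 ± 0.22 in placebo foci (limma adjusted p = 0.042) and by 0.89 ± 0.22 in rapamycin foci (adjusted p = 0.0288), and the difference of -0.56 ± 0.22 in AAF/PH liver was not called (adjusted p = 0.0868). The placebo call was lost in 11 of 21 alternatives and the rapamycin call in 5. The rapamycin fall was 0.56 after quantile normalization (adjusted p = 0.0463). Dmgdh, dimethylglycine dehydrogenase, read 399.6, 306 and 367 in normal liver, 100.4, 79.5 and 84.4 in AAF/PH liver, 136, 137 and 194 in placebo foci, and 219, 255 and 94.6 in rapamycin foci. The AAF/PH animals lay below every placebo animal, and rapamycin animal 3 fell inside their range. Dmgdh fell by 2.02 ± 0.30 in AAF/PH liver (adjusted p = 0.000281) and by 1.21 ± 0.30 in placebo foci (adjusted p = 0.0201), and the difference of -1.03 ± 0.30 in rapamycin foci was just short of the threshold (adjusted p = 0.0548). The placebo call was lost in 4 of 21 alternatives, those without normal animal 1 (adjusted p = 0.102), normal animal 3 (0.0803), placebo animal 1 (0.0971) or placebo animal 2 (0.0868), and 5 of 21 gained the rapamycin call.

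**Figure D2:**
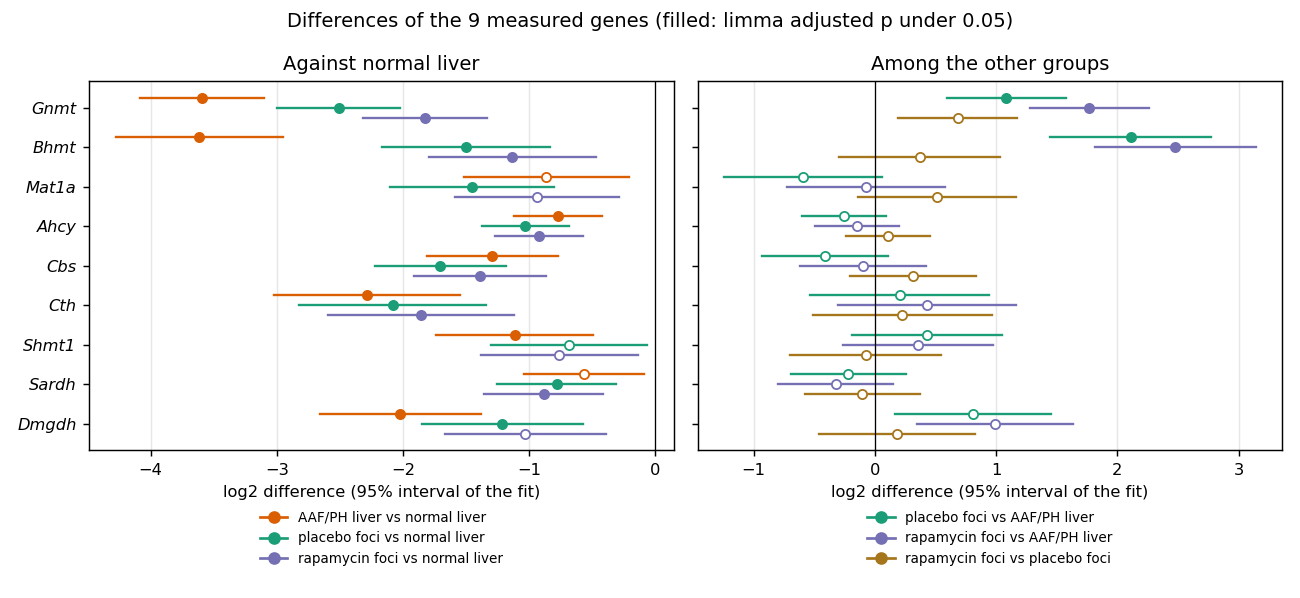
Log2 differences of the 9 measured genes with the 95% interval of the limma fit, against normal liver on the left and among the other groups on the right; filled points have an adjusted p under 0.05. On the right, Gnmt and Bhmt are filled in both comparisons with AAF/PH liver and no gene is filled between rapamycin and placebo foci.

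The counts against normal liver moved with single animals. Without normal animal 1, 5 of 9 genes were called in placebo foci in place of 8, with Mat1a (limma adjusted p = 0.0522), Sardh (0.229) and Dmgdh (0.102) lost. The count in rapamycin foci was 4 without normal animal 1, normal animal 3 or rapamycin animal 3, and 9 without rapamycin animal 2. Calls over all 14497 genes moved too. In placebo foci they went from 1192 in full to 606 without normal animal 1. In rapamycin foci they went from 947 to 224 without normal animal 1, 284 without normal animal 3 and 2051 without rapamycin animal 2. Every difference from normal liver kept its sign in all 21 alternatives for all 9 genes.

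Foci were set against AAF/PH liver to ask how lesions that persist differ from tissue captured as oval cells. Gnmt and Bhmt were the members that were higher in placebo foci, 2 of 9, against 2.62% of all genes called higher and 1.57% lower. Gnmt was higher by 1.08 ± 0.23 (limma adjusted p = 0.0135) and Bhmt by 2.11 ± 0.31 (adjusted p = 0.000986), with no overlap between the animals in either gene. In rapamycin foci the same genes were higher, Gnmt by 1.77 ± 0.23 (adjusted p = 0.000348) and Bhmt by 2.48 ± 0.31 (adjusted p = 0.00026), against 2.14% of all genes higher and 1.87% lower. Neither comparison called a member lower. Both use the same AAF/PH animals. The other 7 genes ranged from -0.59 (Mat1a) to 0.81 (Dmgdh) in placebo foci and from -0.32 (Sardh) to 0.99 (Dmgdh) in rapamycin foci. For Dmgdh these were ± 0.30, with adjusted p = 0.182 and 0.0941, and without rapamycin animal 3 both were called, at 0.81 in placebo foci (adjusted p = 0.00471) and 1.43 in rapamycin foci (adjusted p = 5.41e-05). Cth was called in rapamycin foci too without that animal, at 0.94 (adjusted p = 0.00815), which makes 3 members called in placebo foci and 4 in rapamycin foci. Calls over all 14497 genes rose as well without that animal, from 608 to 1739 in placebo foci and from 581 to 2058 in rapamycin foci. The Gnmt call in placebo foci was lost without AAF/PH animal 3 (0.84, adjusted p = 0.0743) or placebo animal 3 (0.98, adjusted p = 0.0693).

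The hepatocyte markers did not move as 1 group between the same tissues. Against AAF/PH liver, 3 of 10 were higher and 1 lower in placebo foci: Alb by 0.61 ± 0.16, Apoa1, an apolipoprotein, by 2.40 ± 0.27 and Apoc3, another, by 2.02 ± 0.30 were higher, and Cyp2e1, a pericentral cytochrome P450, fell by 1.19 ± 0.25. The same 4 genes were called in rapamycin foci, in the same directions. Apoa1 and Cyp2e1 were named after their values were seen. Against normal liver 6, 5 and 1 of 10 markers fell in AAF/PH liver, placebo foci and rapamycin foci, with medians of -0.72, -0.84 and -0.53. Over all genes 12.5%, 5.38% and 4.93% were called lower in these comparisons. Against AAF/PH liver, 2.62% of all genes were higher and 1.57% lower in placebo foci, and 2.14% and 1.87% in rapamycin foci. Of 8 stellate cell and matrix markers 6 were lower, and none higher, in each kind of foci than in AAF/PH liver. The part of these markers in the differences of Gnmt and Bhmt was not tested.

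Rapamycin and placebo foci were compared to ask whether mTOR inhibition leaves a trace in the lesions after the pellet. No measured gene of the 9 was called, and of all genes 0% was called higher and 0% lower. At an unadjusted limma p under 0.05 there were 483 genes, against 724.85 expected if no gene differed, and 1 member, Gnmt. Gnmt was 0.68 ± 0.23 higher in rapamycin foci (limma adjusted p = 0.985), with an interval of 0.19 to 1.17. Its animals did not overlap, but the share of all genes without overlap was not counted, so this is no result about Gnmt. The other 8 genes overlapped between the groups. Their differences ran from -0.10 (Sardh) to 0.52 (Mat1a), and the widest interval, of Cth, reached from -0.51 to 0.96. The upper limits reached 1.17 for both Gnmt and Mat1a, so a lack of calls does not show that the lesions were alike.

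Rapamycin animal 3 stood apart within its group. It read lowest of its group in 9 of 9 genes. Its new capture read higher than both arrays of the first RNA in 8 of 9 genes, all but Sardh: Gnmt read 144, 153 and 160.4 on its arrays in order, Bhmt 897, 985 and 1100.3, Mat1a 267, 295 and 377, and Cth 155, 183 and 258. All 3 arrays of the animal lay below the other rapamycin animals in each of these 4 genes. Without this animal Gnmt was 0.87 higher in rapamycin than in placebo foci (limma adjusted p = 0.194) and Mat1a 0.85 (adjusted p = 0.383), and no member was called.

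**Figure D3:**
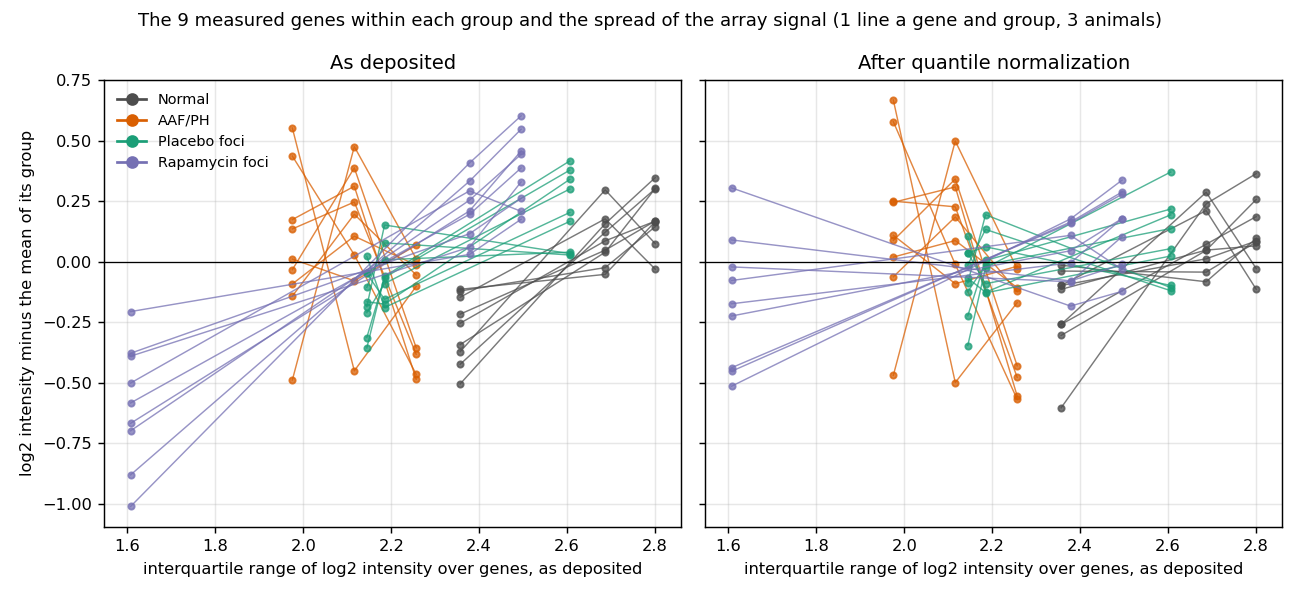
Deviation of each of the 9 measured genes from its group mean (log2) in each animal against the spread (interquartile range, log2) of that animal's array, as deposited on the left and after quantile normalization on the right; each line joins the 3 animals of 1 gene and group. As deposited, animals of narrow spread read low in the normal, placebo and rapamycin groups, with rapamycin animal 3 at the far left.

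In 3 of the 4 groups the animals with narrow arrays read low in most of the 9 genes, and AAF/PH liver did not follow this. Normal animal 2 had the narrowest spread of its group (2.36) and the lowest value in 9 of 9 genes. Placebo animal 3 had the widest of its group (2.61) and the highest value in 7 of 9. In AAF/PH liver the widest array, of animal 3 (2.26), was lowest in 4 genes and highest in 1, and animal 1, of middle spread (2.12), was highest in 6. After quantile normalization normal animal 2, AAF/PH animal 3 and rapamycin animal 3 were each lowest in 6 of 9 genes, rapamycin animal 3 was highest in 2, and normal animal 1 was still highest in 7. The members called were then 6, 8 and 7 of 9 lower against normal liver (AAF/PH liver, placebo foci, rapamycin foci), none between the foci and 2 and 3 higher against AAF/PH liver.

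Pemt, which methylates phosphatidylethanolamine to phosphatidylcholine and is a large consumer of S-adenosylmethionine in liver, could not be read on its own. The probe set that carries Srebf1 and Pemt (10743199) read 601, 340.2 and 484 in normal liver, 87.2, 72.4 and 63.9 in AAF/PH liver, 171, 162 and 171 in placebo foci, and 240.0, 237 and 116 in rapamycin foci. No group overlapped normal liver, and rapamycin animal 3 was below every placebo animal. In a limma fit over all probe sets its difference from normal liver was -2.65 in AAF/PH liver (adjusted p = 6.05e-05), -1.46 in placebo foci (adjusted p = 0.00775) and -1.30 in rapamycin foci (adjusted p = 0.0256). Against AAF/PH liver the same fit called it higher, by 1.18 in placebo foci (adjusted p = 0.0469) and 1.34 in rapamycin foci (adjusted p = 0.0245). On GRCr8 both genes lie on chromosome 10 with 1 protein-coding gene between them. The change cannot be given to either gene, since Srebf1, a transcription factor of lipid synthesis, is also expressed in liver.

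The genes around the cycle were read from lists of neighbouring steps, 71 genes of which 62 were measured. In AAF/PH liver 29 of the 62 fell and 1 rose, with a median of -0.61, where 12.5% of all genes were called lower, 7.54% higher and the median was 0.12. In placebo foci 14 fell and 1 rose, with a median of -0.39, against 5.38% lower, 2.84% higher and a median of 0.04 over all genes. In rapamycin foci 14 fell and 1 rose, with a median of -0.39, against 4.93% lower, 1.6% higher and 0.07. Between the foci none was called. Against AAF/PH liver 10 were higher and 2 lower in each kind of foci, with medians of 0.27 (placebo) and 0.25 (rapamycin). Over all genes 2.62% were higher and 1.57% lower in placebo foci, and 2.14% higher and 1.87% lower in rapamycin foci. The shares over all genes given here are the background for the counts of each list below.

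**Figure D4:**
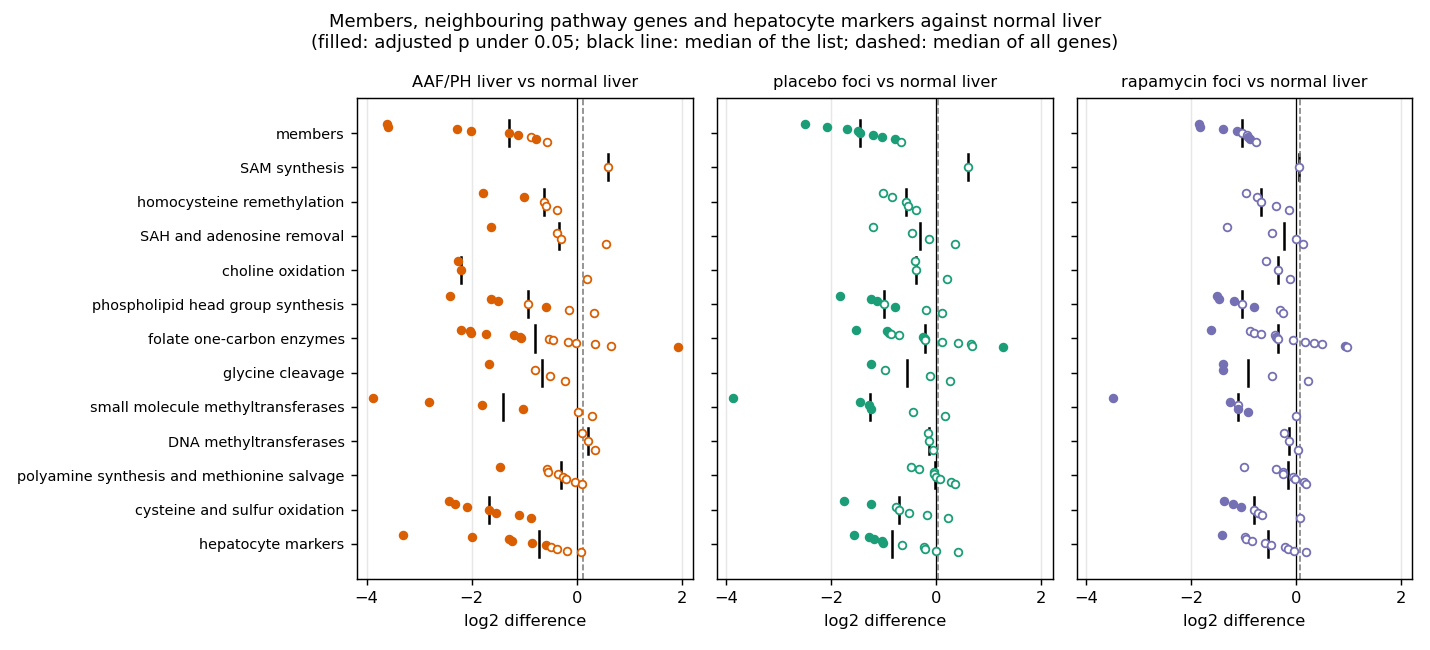
Log2 differences from normal liver of the 9 measured genes (top row), of 11 lists of neighbouring steps and of hepatocyte markers (bottom row), 1 point a gene, filled at an adjusted p under 0.05; black lines are list medians and the dashed line the median of all genes. The members' median lies at -1.29, -1.45 and -1.03 in the 3 panels, and all points of the DNA methyltransferases are open.

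Synthesis of the donor outside Mat1a was covered by Mat2a, the form of dividing and non-liver cells. It read 60.2, 46.1 and 66.6 in normal liver, 89.5, 89.1 and 81.1 in AAF/PH liver, 86.9, 93.4 and 77.9 in placebo foci, and 61.8, 77.5 and 42.6 in rapamycin foci. AAF/PH and placebo animals lay above normal liver, by 0.60 ± 0.22 (limma adjusted p = 0.0633) and 0.59 ± 0.22 (adjusted p = 0.124), and neither was called. A second probe set of Mat2a differed by 0.71, 0.28 and 0.80 from normal liver in AAF/PH liver, placebo foci and rapamycin foci, where the first had 0.60, 0.59 and 0.05, so the probe sets disagree on rapamycin foci. Mat2b is not analysed here.

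Of 5 remethylation genes measured, 2 fell in AAF/PH liver and none in foci. Bhmt2, the paralog of Bhmt that takes its methyl group from S-methylmethionine, fell by 1.78 ± 0.32 in AAF/PH liver (limma adjusted p = 0.00142) and differed by -1.02 and -0.95 in placebo and rapamycin foci, not called. Mtrr, which reactivates methionine synthase, fell by 1.01 ± 0.28 in AAF/PH liver. Mtr, methionine synthase itself, which uses folate in place of betaine, differed by -0.39, -0.39 and -0.13, not called. Bhmt thus fell in all 3 tissues while Mtr was called in none, though its changes were not tested against those of Mtr. Bhmt and Bhmt2 are similar in sequence, and whether probes of one read the other was not tested.

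Of 3 genes measured in the list of choline uptake and oxidation, 2 fell in AAF/PH liver and none was called in foci against normal liver. The same 2, Chdh and Pipox, were higher in both kinds of foci than in AAF/PH liver. Of this pair only Chdh oxidises choline, towards the betaine for Bhmt. The remaining gene, Slc44a1, a choline transporter, differed from normal liver by 0.20 in AAF/PH liver and in placebo foci and by -0.11 in rapamycin foci, not called. Chdh, choline dehydrogenase, read 295, 229 and 256 in normal liver, 62.1, 44.2 and 57.1 in AAF/PH liver, 189.5, 177 and 233 in placebo foci, and 201, 233 and 110.1 in rapamycin foci. Only the AAF/PH animals were clear of all others. Chdh fell by 2.26 ± 0.25 in AAF/PH liver (limma adjusted p = 2.85e-05) and was 1.88 ± 0.25 higher in placebo foci than there (adjusted p = 0.000478). The differences from normal liver of -0.38 in placebo foci and -0.58 in rapamycin foci were not called. Pipox, which oxidises sarcosine and pipecolate in peroxisomes, had a fall of 2.21 ± 0.32 in AAF/PH liver and values 1.81 and 1.87 higher in the foci than in AAF/PH liver.

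Among folate enzymes 7 of 14 fell and 1 rose in AAF/PH liver. In placebo foci 3 fell and 1 rose, and in rapamycin foci 1 fell and 1 rose. Mthfd1, named after its values were seen, was close to the threshold in AAF/PH liver, at -1.07 (limma adjusted p = 0.0326). In the limma fit over all probe sets it was not called (adjusted p = 0.0527). Another probe set of Mthfd1 differed by -0.34, also not called. Aldh1l1, which burns off formyl groups from folate in the cytosol, was called in opposite directions against normal liver, and is named, as is Tyms, after its values were seen. It read 291, 202 and 252 in normal liver, 137, 115 and 101 in AAF/PH liver, 611, 474 and 724 in placebo foci, and 633, 732 and 242 in rapamycin foci. All placebo animals lay above all normal animals, and so did rapamycin animals 1 and 2. Aldh1l1 fell by 1.07 ± 0.33 in AAF/PH liver (limma adjusted p = 0.0344, and 0.0579 after quantile normalization) and rose by 1.27 ± 0.33 in placebo foci (adjusted p = 0.0265). Each of these calls was made in 14 of 22 analyses, the main one and its alternatives, with the same sign in all 22. In rapamycin foci the difference of 0.97 was not called as deposited, and after quantile normalization it was 1.35 (limma adjusted p = 0.00238). It was called in only 3 of the 22 analyses, where it ran from 0.67 to 1.47 over all 22. Shmt2, the mitochondrial partner of Shmt1, fell by 1.72 ± 0.26 in AAF/PH liver (adjusted p = 0.000358) and differed by -0.22 and -0.38 in the foci, not called.

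Tyms, thymidylate synthase, a gene of dividing cells, rose by 1.93 ± 0.26 in AAF/PH liver (limma adjusted p = 0.000144) and was lower than there in both kinds of foci, by differences of -1.24 and -1.76. Mthfd2, a mitochondrial folate enzyme of growing cells, rose by 0.93 ± 0.20 in rapamycin foci (adjusted p = 0.0153). Its differences of 0.34 in AAF/PH liver and 0.65 in placebo foci were not called, and rapamycin foci stood 0.28 above placebo foci, also not called. A second, dimmer probe set of Mthfd2 differed by 0.79 in placebo foci and 0.77 in rapamycin foci, and by -0.02 between them. In the limma fit over all probe sets neither fold was called (adjusted p = 0.0663 and 0.0885). The first probe set kept its call in rapamycin foci there (adjusted p = 0.0285). Slc46a1, the proton-coupled folate carrier, fell in all 3 groups, by 2.03 ± 0.20, 1.54 ± 0.20 and 1.63 ± 0.20. Aldh1l2 and Ftcd also fell in AAF/PH liver, by 2.01 and 2.20.

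Methyltransferases of small molecules, the consumers beside Gnmt, fell in 4 of 6 cases in each of the 3 comparisons, but not the same 4. Inmt, which methylates indoles, read 182, 246 and 152 in normal liver and 10.7 to 17.4 in all 9 other animals. It fell by 3.89 ± 0.19 in AAF/PH liver (limma adjusted p = 3.1e-08), by 3.88 ± 0.19 in placebo foci (adjusted p = 3.17e-08) and by 3.50 ± 0.19 in rapamycin foci (adjusted p = 1.2e-07). The low readings lay under 19.8, the lowest median intensity of any array, so the near-equal sizes of these falls rest on dim signal. In the 21 of 22 analyses that held Inmt the falls were all called, but were as small as 2.83, 2.83 and 2.64. Gamt, the last step of creatine synthesis, fell by 2.81 ± 0.34 in AAF/PH liver (adjusted p = 5.88e-05) and by 1.25 ± 0.34 in placebo foci (adjusted p = 0.0354), and was 1.56 ± 0.34 higher in placebo foci than in AAF/PH liver. The call in placebo foci against normal liver was made in 14 of 22 analyses, and the difference of -1.11 in rapamycin foci was not called (adjusted p = 0.0667). Nnmt, which methylates nicotinamide, had another pattern. It read 84.5, 117 and 71.8 in AAF/PH liver beside 100.1, 64.1 and 104 in normal liver, and 33.2 to 45.9 in the 6 animals with foci. It fell by 1.28 ± 0.22 in placebo foci (adjusted p = 0.00225) and by 1.11 ± 0.22 in rapamycin foci (adjusted p = 0.0103), and its difference of 0.03 in AAF/PH liver was not called. As3mt fell in all 3 groups, by 1.81, 1.45 and 1.25, and Tpmt in AAF/PH liver and rapamycin foci, by 1.02 and 0.92.

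Below cysteine, all 7 genes measured were called lower in AAF/PH liver, 2 in placebo foci and 3 in rapamycin foci, against 12.5%, 5.38% and 4.93% of all genes. A call among them was close to the threshold: Sqor, a sulfide oxidase, differed by -1.09 in AAF/PH liver (limma adjusted p = 0.0461, and 0.0713 in the fit over all probe sets), while another probe set of it differed by 0.18 and was not called. Sqor was named after its values were seen. Cdo1, cysteine dioxygenase, the entry to taurine and sulfate, read 1364, 1318 and 1162 in normal liver, 229, 341 and 167 in AAF/PH liver, 309, 422 and 421 in placebo foci, and 636, 641 and 295 in rapamycin foci. It fell by 2.44 ± 0.30 (limma adjusted p = 6.37e-05), 1.75 ± 0.30 (adjusted p = 0.00207) and 1.37 ± 0.30 (adjusted p = 0.0153). Csad, the next step to taurine, fell by 1.68 ± 0.29 in AAF/PH liver and differed by 0.21 and 0.08 from normal in the foci, where it was 1.89 and 1.76 above AAF/PH liver. Suox, sulfite oxidase, named after its values were seen, fell in all 3 groups, by 1.54, 1.24 and 1.19. Ethe1 and Tst, which clear sulfide and cyanide, fell in AAF/PH liver by 2.33 and 2.09, and of the pair only Ethe1 was called against normal liver in foci, in those with rapamycin (by 1.05).

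Of 4 genes for removal of S-adenosylhomocysteine and adenosine, 1 fell in AAF/PH liver and none was called in foci. Adk, adenosine kinase, which draws off the other product of Ahcy, fell by 1.63 ± 0.38 in AAF/PH liver (limma adjusted p = 0.00756). Its differences of -1.20 in placebo foci (adjusted p = 0.0716) and -1.32 in rapamycin foci (adjusted p = 0.0536) were not called. Ada, adenosine deaminase, differed by 0.57, 0.36 and 0.13 in the 3 groups, not called. Ahcyl1 and Ahcyl2, relatives of Ahcy with signalling roles, differed by -0.38 and -0.30 in AAF/PH liver, -0.14 and -0.47 in placebo foci and -0.46 and -0.01 in rapamycin foci, none called. Glycine cleavage, which competes with Gnmt for glycine, had 4 measured genes, of which 1 fell in AAF/PH liver, 1 in placebo foci and 2 in rapamycin foci. These were Gldc, which fell by 1.25 ± 0.33 and 1.39 ± 0.33 in placebo and rapamycin foci, and Gcsh, which fell by 1.67 ± 0.31 in AAF/PH liver and 1.39 ± 0.31 in rapamycin foci. Amt differed by -0.22, 0.25 and 0.22 and Dld by -0.52, -0.13 and -0.46 in AAF/PH liver, placebo foci and rapamycin foci, none called. Of 7 genes for phospholipid head groups 4 fell in each comparison, the same 4 in all: Chka, choline kinase, fell by 2.41, 1.83 and 1.46 in AAF/PH liver, placebo foci and rapamycin foci, Pcyt2 by 1.63, 1.25 and 1.19, Chpt1 by 1.51, 1.13 and 1.51, and Chkb by 0.59, 0.80 and 0.80. Chkb was named after its values were seen.

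The DNA methyltransferases, which also use the donor, were not called in any comparison. Dnmt1, the maintenance enzyme, read 34.0, 32.2 and 38.8 in normal liver, 43.7, 42.8 and 46.7 in AAF/PH liver, 29.7, 26.3 and 40.1 in placebo foci, and 38, 39.3 and 30.2 in rapamycin foci. The AAF/PH animals lay above all others, by 0.35 ± 0.19 against normal liver (limma adjusted p = 0.2). Of 8 genes of polyamine synthesis and methionine salvage, Adi1 alone was called, with a fall of 1.46 ± 0.31 in AAF/PH liver. That count is no more than the share of 12.5% of all genes called lower there.

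The genes most like each member were sought among all 14497 by the root mean square difference of log2 values, centred on each gene's mean over the 12 animals. This describes the same samples that gave the tests, so it is no further support. For Gnmt the closest were Slc43a1 (0.21), an amino acid carrier of liver, Gckr (0.27), the glucokinase regulator, and Tymp (0.29). Slc43a1 had geometric means of 146, 14.5, 26.1 and 36.2 in normal liver, AAF/PH liver, placebo foci and rapamycin foci. For Bhmt they were Ndrg2 (0.22), Cyp4f4 (0.27) and Dhtkd1 (0.27), and for Cth Apom (0.16), Dpyd (0.19) and Cfhr4 (0.22). Those of Cbs were Nags (0.18), Hao1 (0.18) and Nfil3 (0.20), and those of Dmgdh Fdft1 (0.10), Sema4g (0.11) and Ndufv3 (0.12). Mat1a lay closest to Hsd17b13 (0.21), Il1r1 (0.21) and Il1rn (0.23), and Ahcy to Fgfr4, Pcsk5 and B4galnt1 (each 0.14). Shmt1 lay closest to Atp5f1e, Slc35d1 and Uqcrq (0.14, 0.14 and 0.15), and Sardh to Ddrgk1 (0.09), Rnf217 (0.13) and Mlx (0.13). No member was among the 3 closest genes of another. Among the members themselves the closest pair was Ahcy and Sardh (0.18) and the most distant Bhmt and Sardh (1.24). These distances are not scaled, so they also depend on how widely each gene varied. The log2 SD over the 12 animals was 0.44 for Ahcy, 0.43 for Sardh and 1.42 for Bhmt.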

How the data were processed

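The deposited table gives, per array, linear intensity values for 28826 probe sets. The submitters' processing notes name Partek 6.6 and RMA, with no role or order. Further settings: not given in the sources used here. As the table is linear and the design had assumed log2 values, log2 of the deposited intensity was taken with no offset, and rapamycin animal 3 was the mean of its 3 arrays on that scale. Symbols came from the platform annotation. Probe sets with 1 symbol were used, and of several for a gene the one of highest mean, which left 14497 genes.

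Limma 3.58.1 (lmFit and eBayes, R 4.3.3) fitted 4 group means over 12 animals, with 8 residual and 6.38 prior degrees of freedom, and p-values of the 6 contrasts were adjusted after Benjamini and Hochberg over all genes. P-values set the differences of group means against the spread between animals, pooled over the 4 groups and moderated over all genes. The number of animals limits the precision. The script was tested on simulated data. Promoters and gene order came from RefSeq tables on GRCr8. The members, lists, markers and the rule for naming genes were chosen with earlier results of these data known. By that rule all members, 15 set neighbours where measured, up to 3 further called genes per list, the 3 genes most like each member, and up to 4 genes of a marker list were named. Ada, Amt, Dld and Slc44a1 were added after their values were seen, to complete their lists. Alternatives were median centring, quantile normalization, an offset of 16, a filter on dim genes, the mean of all probe sets, other averages of rapamycin animal 3, a replicate block and each animal left out in turn.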

Additional observations from a re-analysis of the deposited data

How the results depend on the processing

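Each count of called genes and each difference was recomputed under 21 alternatives: of the 54 differences of the 9 genes, 1066 recomputed values kept direction and side of the threshold, 37 lost the call, 19 gained it and 12 changed sign, and none of the 12 was called. With quantile normalization the difference of Cth in placebo foci against AAF/PH liver was -0.037. With the new capture alone for rapamycin animal 3, Shmt1 was 0.0074 between rapamycin and placebo foci and Mat1a 0.021 between rapamycin foci and AAF/PH liver. With each animal left out in turn, Cbs and Mat1a in rapamycin foci against AAF/PH liver ran from -0.29 to 0.16 and from -0.30 to 0.26. Between rapamycin and placebo foci, Shmt1 ran from -0.30 to 0.27, Cth from -0.076 to 0.73, Dmgdh from -0.091 to 0.62 and Sardh from -0.27 to 0.092. Members called ran from 6 to 9 in AAF/PH liver, 5 to 9 in placebo foci and 4 to 9 in rapamycin foci against normal liver, and from 1 to 3 and 2 to 4 in placebo and rapamycin foci against AAF/PH liver, with 0 throughout between the foci. The cause of these shifts was not tested. Over all genes, 1192 were called in placebo foci against normal liver, and 606 to 2462 with an animal left out; the other counts ran from 1552 to 5208 (AAF/PH liver, 2900 in full), 224 to 2051 (rapamycin foci, 947), 330 to 1739 (placebo foci against AAF/PH liver, 608), 297 to 2058 (rapamycin foci against AAF/PH liver, 581) and 0 to 3 between the foci. The highest of each came without rapamycin animal 3 where it was 5208, 2462, 1739, 2058 or 3. Median centring gave 399 and 375 and quantile normalization 1040 and 1161 for placebo and rapamycin foci against AAF/PH liver. Median centring moved the median of all genes from 0.12 to -0.08 in AAF/PH liver, 0.04 to -0.07 in placebo foci and 0.07 to -0.10 in rapamycin foci.

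Animals of the same replicate number in different groups did not deviate together (correlations -0.68 to 0.38, median 0.01), so the numbers were not taken as pairs. With the number as a replicate block, the members called were 7, 7 and 4 against normal liver in AAF/PH liver, placebo foci and rapamycin foci, 0 between the foci and 2 and 2 against AAF/PH liver. Sardh (adjusted p = 0.069 in placebo and 0.054 in rapamycin foci) and Bhmt in rapamycin foci (adjusted p = 0.0829) were lost in limma, and the genes called in rapamycin foci were 555.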
